A study of Mus musculus with 6 samples.

Results

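The genes described here are 47 members of the ATF4 program and the unfolded protein response, of 46078 genes in the count table. They were chosen by name, as rows whose gene symbol equals a member. Of the 47, 27 are ATF4 and genes it is known to switch on (the ATF4 targets), and 20 are folding, disposal and sensor genes of the endoplasmic reticulum (the reticulum chaperones). All 47 were in the table and all 47 passed the filter on low counts, which left 15568 genes.

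RNA was sequenced from mesoderm explants of mouse embryos, collected at E7.25 per the sample labels (the series description adds E7.5, late streak to no bud), in 3 groups of 2 libraries each: control, PD at 1 µM and YZ9 at 10 µM. The explants were freed of the other layers with trypsin and pancreatin, attached to fibronectin for 3 to 4 h, exposed to an inhibitor for 16 h and collected at 27 h of culture per the growth protocol, where the series description gives a shorter time. The sample labels give the genotype as WT for all groups, while the series description names TCF/Lef:H2B-GFP reporter mice, and whether controls received a vehicle is not stated. The labels do not spell out PD and do not tie the 2 libraries of a group to separate embryos or cultures. The PD libraries differed in sex from each other, as did the YZ9 libraries, so each of those pairs was not from the same embryo, whereas both controls were male and their spread may be technical. The p-values rest on the spread among these libraries alone.

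ATF4 is a transcription factor made mainly by translational control: when kinases that sense stress phosphorylate the initiation factor eIF2, most translation slows while Atf4 mRNA is read more. Its targets include enzymes that make serine, asparagine and glycine, transporters that import amino acids and cystine, and feedback regulators such as Trib3 and Chac1. The unfolded protein response of the endoplasmic reticulum shares the PERK arm with this pathway and has its own arms through IRE1 with XBP1 and through ATF6, which raise chaperones and disposal factors. Since ATF4 is controlled at translation and XBP1 by splicing, gene-level RNA counts do not read the activity of either protein.

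The promoters are described first, since the 2 lists are known to be driven through different DNA elements. Of the 47 genes, 23 ATF4 targets and 17 reticulum chaperones had a window in the RefSeq promoter table (GRCm38.p6, 250 bases before to 50 bases after each start), and no window was matched for Slc7a5, Slc7a3, Aldh1l2, Cth, Manf, Hyou1 or Atf6. The 4 motifs were searched on both strands. The C/EBP-ATF response element (CARE), searched as TGATGNAA, was in 8 of 23 ATF4 targets (34.8%) and in 1 of 17 chaperones, against 4.51% of all 27025 genes with a window and 2.68% of those tested. The 8 were Atf3, Chac1, Trib3, Asns, Slc7a11, Vldlr, Nupr1 and Pck2. The endoplasmic reticulum stress element (ERSE), searched as CCAAT, any 9 bases and CCACG, was in 8 of 17 chaperones (47.1%) and in 0 of 23 ATF4 targets, against 0.137% of all genes and 0.188% of those tested. Its holders were Hspa5, Hsp90b1, Calr, Canx, Pdia6, Dnajc3, Creld2 and Syvn1. ERSE-II, searched as ATTGG, any 1 base and CCACG, was in Dnajb11 and Herpud1. The unfolded protein response element TGACGTGG was in 0 windows of members, against 0.714% of all genes. A match is a run of letters in the window and is not evidence of binding, and a window without one says only that these letters are not there.

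The 250 bases before the start are printed for 4 ATF4 targets that hold a CARE, for 2 chaperones that hold an ERSE, and for Herpud1, the 1 member with both a CARE and an ERSE-II. Each reads 5′ to 3′ in the direction of the gene, from RefSeq on GRCm38.p6, and capitals mark the motif or its reverse complement.
Chac1, chr2:119350992-119351241, + strand: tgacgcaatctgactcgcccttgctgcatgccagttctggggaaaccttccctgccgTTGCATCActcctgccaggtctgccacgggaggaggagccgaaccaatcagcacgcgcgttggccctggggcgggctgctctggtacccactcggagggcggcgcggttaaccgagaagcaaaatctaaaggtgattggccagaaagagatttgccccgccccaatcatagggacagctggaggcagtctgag
Asns, chr6:7693210-7693459, - strand: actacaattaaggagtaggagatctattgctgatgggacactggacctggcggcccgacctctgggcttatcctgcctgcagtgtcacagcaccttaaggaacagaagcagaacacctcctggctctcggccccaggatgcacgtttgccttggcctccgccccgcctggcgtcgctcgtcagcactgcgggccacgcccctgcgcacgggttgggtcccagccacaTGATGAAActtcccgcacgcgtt
Slc7a11, chr3:50443614-50443863, - strand: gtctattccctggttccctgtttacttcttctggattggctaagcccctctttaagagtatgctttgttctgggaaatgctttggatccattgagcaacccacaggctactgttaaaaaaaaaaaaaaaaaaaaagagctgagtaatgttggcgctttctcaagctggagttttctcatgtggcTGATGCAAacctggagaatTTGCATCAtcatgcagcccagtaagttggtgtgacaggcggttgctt
Nupr1, chr7:126625471-126625720, - strand: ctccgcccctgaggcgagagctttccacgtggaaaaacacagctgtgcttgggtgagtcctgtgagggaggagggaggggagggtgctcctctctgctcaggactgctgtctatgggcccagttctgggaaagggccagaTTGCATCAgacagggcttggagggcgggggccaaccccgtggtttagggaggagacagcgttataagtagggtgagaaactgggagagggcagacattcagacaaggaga
Hspa5, chr2:34771840-34772089, + strand: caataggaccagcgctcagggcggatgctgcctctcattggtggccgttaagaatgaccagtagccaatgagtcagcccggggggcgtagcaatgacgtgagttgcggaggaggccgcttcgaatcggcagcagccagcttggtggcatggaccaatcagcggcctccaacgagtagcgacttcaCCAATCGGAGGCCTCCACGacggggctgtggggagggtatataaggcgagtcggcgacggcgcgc
Creld2, chr15:88819396-88819645, + strand: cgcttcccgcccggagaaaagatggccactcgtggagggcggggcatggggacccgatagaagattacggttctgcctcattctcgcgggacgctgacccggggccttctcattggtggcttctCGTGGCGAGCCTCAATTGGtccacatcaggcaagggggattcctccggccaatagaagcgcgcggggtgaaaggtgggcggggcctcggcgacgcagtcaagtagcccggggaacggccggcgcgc
Herpud1, chr8:94386179-94386428, + strand: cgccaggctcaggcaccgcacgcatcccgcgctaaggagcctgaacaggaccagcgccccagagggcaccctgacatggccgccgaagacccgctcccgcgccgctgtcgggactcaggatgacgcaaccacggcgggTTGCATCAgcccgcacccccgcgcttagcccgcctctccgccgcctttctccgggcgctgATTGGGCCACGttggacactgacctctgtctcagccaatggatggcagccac
Counted from the start, with -1 the base before it, the CARE of Asns begins at -23, that of Nupr1 at -110 and that of Chac1 at -193, while Slc7a11 has a match on each strand, at -66 and -47. The ERSE of Hspa5 begins at -65 and that of Creld2 at -126. In Herpud1 the CARE begins at -112 and the ERSE-II at -52.

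Libraries held 21253194 to 27810161 counts and 20112 to 20933 genes with at least 1 count. Levels are CPM, which are counts scaled to a common library size after TMM, a normalization that assumes most genes are level. By Xist and Y-linked genes, both controls, PD 1 and YZ9 1 were male and PD 2 and YZ9 2 female. Mesoderm markers such as Hand1, Bmp4, Cdh2 and Vim were abundant, whereas the streak markers T, Tbx6 and Mesp1 had at most 8 counts in any library and Msgn1 had 0 in all. Mesoderm markers differed between libraries. Hand1 was at 242 and 125 CPM in controls, 172 and 603 after PD and 179 and 459 after YZ9. In the same order Vim was at 1283 and 1081, 849 and 763, and 853 and 547 CPM. Kdr was at 56.1 and 45.1, 45.8 and 45.0, and 90.3 and 76.6 CPM. Mixl1 had 93 and 39 counts, 1 and 6, and 21 and 326. Of 13 tested, 7 had a log2 fold change above 0 and 6 below after PD, and 8 and 5 after YZ9. Other tissues varied between libraries: the summed CPM of 12 blood and endothelial markers was 2631 and 7611 in controls, 558 and 6727 after PD and 163 and 1288 after YZ9. Embryonic globins made most of that sum in all libraries but YZ9 replicate 1 (Hbb-bh1 alone 663 and 1608 CPM in controls, 191 and 3476 after PD and 14.3 and 445 after YZ9). The endothelial marker Cdh5 did not follow it, at 22.6 and 19.6, 16.8 and 7.85, and 23.7 and 20.6 CPM. Pecam1 and Tie1, also endothelial, were below both controls in all treated libraries. Pecam1 was at 49.9 and 60.4 CPM in controls, 38.0 and 38.1 after PD and 27.6 and 34.5 after YZ9. Tie1 was at 12.7 and 10.1 CPM in controls, 7.15 and 3.62 after PD and 8.73 and 5.77 after YZ9. The summed CPM of 8 definitive endoderm markers was 17.1 and 24.5 in controls, 561 and 92.9 after PD and 345 and 122 after YZ9. The epithelial genes Cldn6 and Cdh1 carried that sum in the treated libraries (Cldn6 449 and 56.5 CPM after PD and 200 and 75.5 after YZ9). Foxa2 and Foxa1 of the same list were low but above both controls in every treated library. Foxa2 had 0 and 4 counts in controls, 169 and 79 after PD and 23 and 28 after YZ9. Foxa1 had 4 and 6, 117 and 41, and 14 and 37. Sox17 and Trh overlapped control with both agents. Hhex was at 5.13 and 7.23 CPM in controls, 4.58 and 3.42 after PD and 7.93 and 5.90 after YZ9. Among ERK feedback genes, 4 of 7 passed edgeR's test, described below, as lower after PD (adjusted p under 0.05, where 0.0964% of all tested genes passed). All 7 had both PD libraries below both controls (background 19.5%). After YZ9 0 of 7 passed, with 3 above 0 and 4 below. Their summed CPM was 461 and 446 in controls, 19.8 and 12.3 after PD and 516 and 269 after YZ9.

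Per kilobase of exon, the chaperones were the more abundant list. In controls the highest were Pdia3 (a disulfide isomerase, 762 CPM per kb), Hspa5 (BiP, the main reticulum chaperone and a sensor partner, 716 CPM per kb) and Calr (calreticulin, 391 CPM per kb), and the lowest was Syvn1 (a ubiquitin ligase of reticulum disposal, 3.44 CPM per kb). Among ATF4 targets Asns (asparagine synthetase) led with 185 CPM per kb, then Slc3a2 (the heavy chain of amino acid exchangers) with 81.2 and Atf4 itself with 71.0 CPM per kb. At the low end were Gdf15 and Cebpb at 0.446 and 0.425 CPM per kb. Gdf15, a stress cytokine, had 17 and 27 counts in controls, 1 and 8 after PD and 4 and 3 after YZ9, and Cebpb, a transcription factor, had 14 and 20, 18 and 1, and 19 and 11, so both are near the limit of what the depth can compare.

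No member passed an adjusted p of 0.05 in any of the 3 comparisons by edgeR's quasi-likelihood test with Benjamini-Hochberg adjustment over all 15568 genes. All genes tested gave few calls as well: 0.0964% passed in PD against control, 0.00642% in YZ9 against control and 0.122% in PD against YZ9. At an unadjusted p under 0.05 there were 5 members in PD against control (10.6%, where 10.8% of all tested genes were). There were 13 in YZ9 against control (27.7%, background 11.3%) and 12 in PD against YZ9 (25.5%, background 11.5%). The PD count was thus near the background. DESeq2 called Gpt2 and Nupr1 in PD against control, Dnajb9 and Nupr1 in YZ9 against control and Xbp1 in PD against YZ9, and limma-trend called 0 members in each. In the authors' deposited table for PD, Nupr1 is the 1 member under an adjusted p of 0.05, among 594 genes. In their deposited table for YZ9, 0 members are, among 586 genes. The values below are therefore descriptions of 6 libraries, and PD and YZ9 are each set against the same 2 controls.

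**Figure D1:**
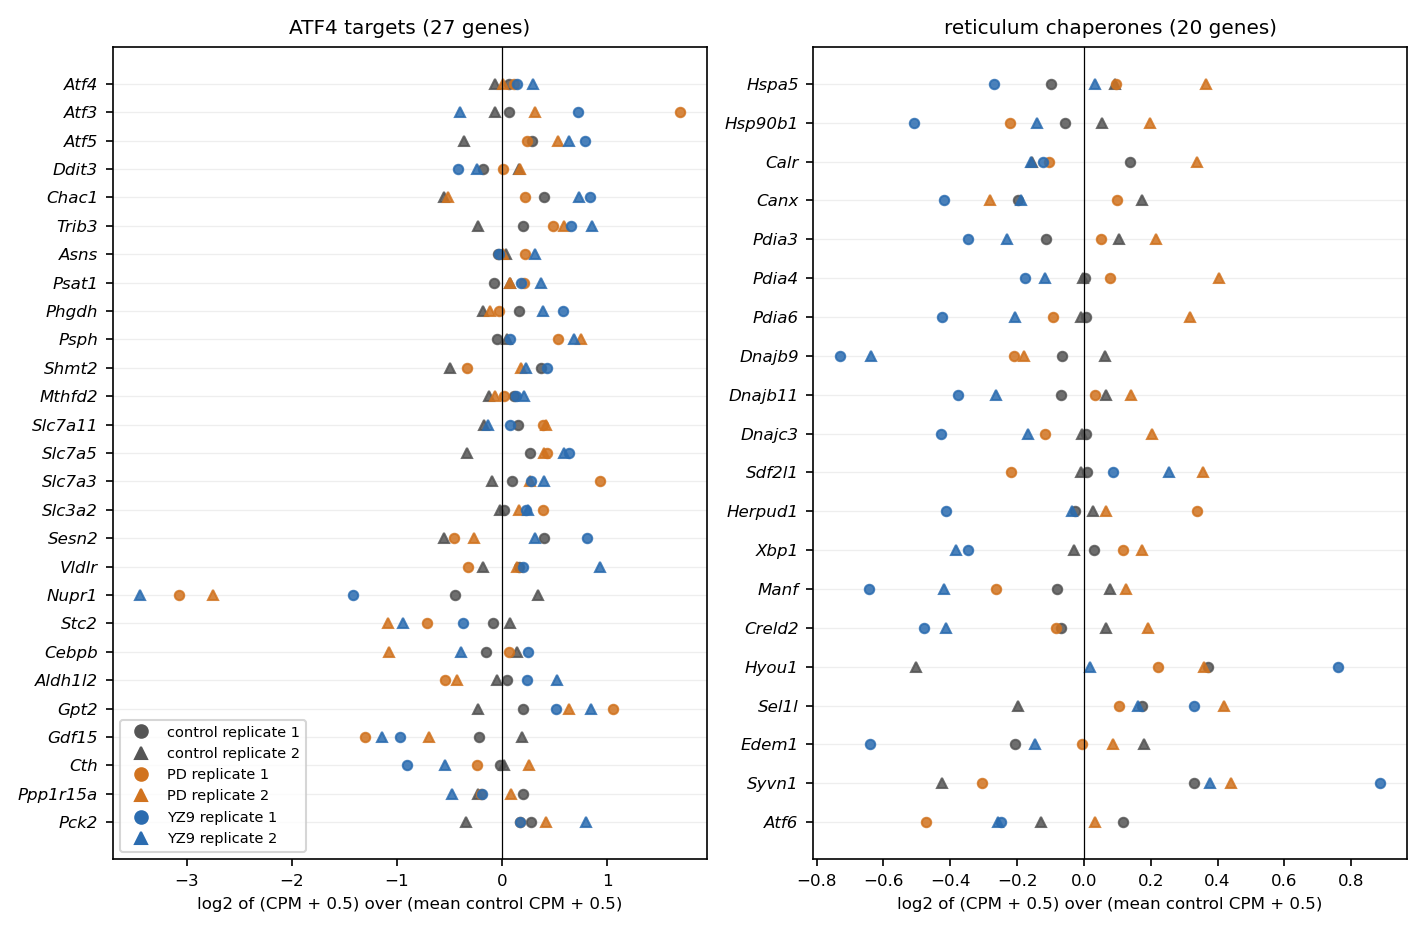
Each row is a member gene and each point 1 library, placed by log2 of (CPM + 0.5) over (mean control CPM + 0.5), with ATF4 targets at left and reticulum chaperones at right on separate scales; grey is control, orange PD and blue YZ9, circles replicate 1 and triangles replicate 2. Among the chaperones both blue points lie left of both controls for 12 of 20 genes, and among ATF4 targets both lie right of both controls for 14 of 27; Nupr1 lies far to the left with both agents.

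After YZ9 the lists lay on opposite sides of control. Of 27 ATF4 targets, 19 had a log2 fold change above 0 and 8 below, with a median of 0.28, whereas of 20 chaperones 4 were above 0 and 16 below, with a median of -0.29. Over all tested genes the median was 0.0021 and 50.2% were above 0. The 2 lists are not independent samples of genes, and no test was made of the lists as such. In each library, the median over ATF4 targets of log2 (CPM + 0.5), less the mean of the controls, was 0.10 and -0.10 in controls, 0.11 and 0.15 after PD and 0.21 and 0.32 after YZ9. For chaperones it was -0.01 and 0.01 in controls, -0.04 and 0.20 after PD and -0.36 and -0.16 after YZ9. The spread between libraries of a group was 0.0920 for the ATF4 median and 0.128 for the chaperone median (pooled SD). The gap between the list medians, ATF4 targets minus chaperones, was 0.11 and -0.11 in controls, 0.15 and -0.05 after PD and 0.57 and 0.47 after YZ9, on the log2 scale, with a pooled SD of 0.127. Both YZ9 libraries lay above the other 4.

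**Figure D2:**
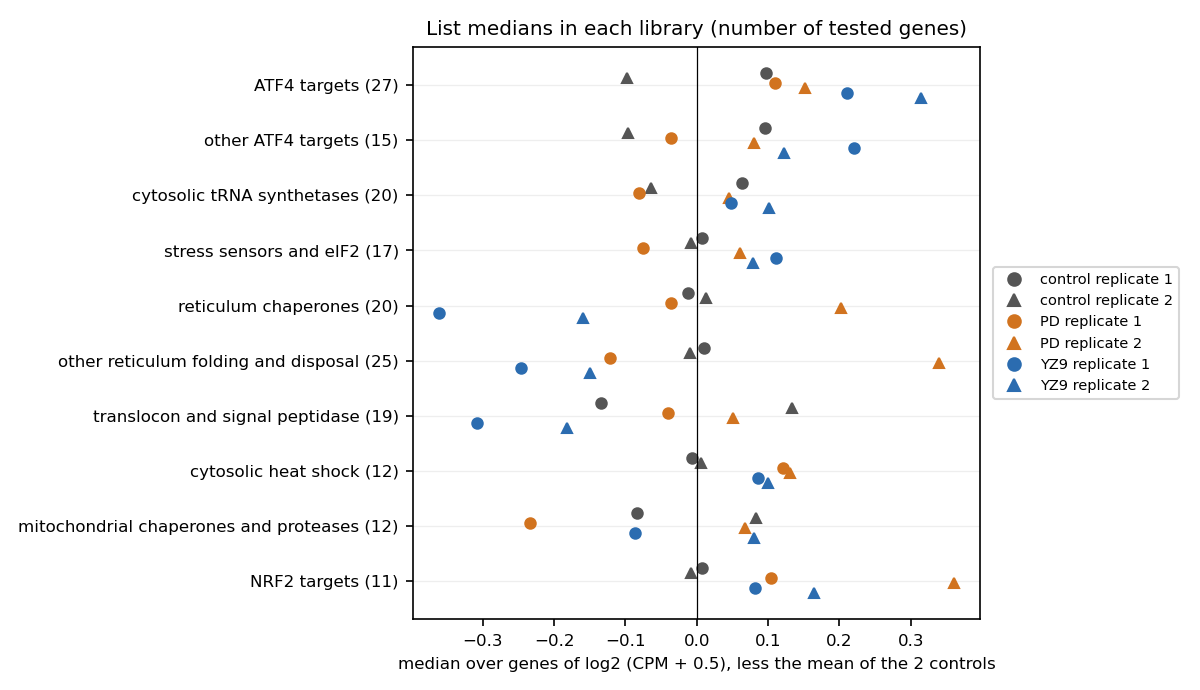
Each row is a gene list with its number of tested genes, and each point is 1 library, placed by the median over the list of log2 (CPM + 0.5) less the mean of the 2 controls; colours and shapes are as in the plot of members. For ATF4 targets the YZ9 libraries sit at 0.21 and 0.32 and for reticulum chaperones at -0.36 and -0.16, beyond the controls in each list.

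Read against the background, the share of ATF4 targets with both YZ9 libraries above both controls was 51.9% (14 of 27), where 21.1% of all tested genes did so. Lower in both were 5 of 27 (18.5%), where 24.5% of all genes were. At an unadjusted p under 0.05, 5 of 27 were higher (18.5%, background 4.34%) and 3 lower (11.1%, background 6.93%). Of the chaperones, 12 of 20 (60.0%) had both YZ9 libraries below both controls and 2 above both. At that p, 5 of 20 were lower (25%) and 0 higher. Leaving out any 1 library or changing the method gave 18 to 21 ATF4 targets above 0 and 15 to 17 chaperones below 0 across 15 settings. Leaving out a library leaves 1 in an arm, which is then assumed to vary like the other groups, so fewer genes can pass. Without YZ9 replicate 1 the chaperone median was -0.15, and 1 chaperone in place of 5 was lower at that p. Without control replicate 2, 0 ATF4 targets were at that p in either direction, while their median was 0.20.

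The blood and endothelial markers differed with the same contrast: 11 of 12 had a log2 fold change below 0 after YZ9, none at 0 counts in any library, and their summed CPM is given above. All 7 tested of 8 definitive endoderm markers were above 0 after YZ9, and Cer1 was at 0 counts in both controls and both YZ9 libraries. Of 9 trophoblast markers 6 were tested, and 5 of the 6 were above 0 after YZ9; the list median, less the controls' mean, was 0.10 and -0.10 in controls, 0.51 and 0.46 after PD and 0.39 and 0.55 after YZ9. Its members Elf5, Prl3d1 and Prl2c2 had at most 3 counts in any library. Krt7 was at 10.6 and 16.2 CPM in controls, 292 and 37.3 after PD and 119 and 34.5 after YZ9. Krt8 was at 2684 and 2073, 4860 and 3931, and 3309 and 3119 CPM. Cdx2 was at 7.38 and 1.62, 0.692 and 0.523, and 5.51 and 6.14 CPM, lowest after PD. After PD 4 of the 6 were above 0 and 2 below. Hand1, given above with the mesoderm markers, is counted in this list too. Epcam, an epithelial gene of the epiblast list, was at 0.862 and 2.52 CPM in controls, 51.9 and 9.22 after PD and 38.4 and 17.6 after YZ9. Otx2 of that list went the other way, at 11.3 and 8.21 CPM in controls, 2.38 and 6.76 after PD and 4.12 and 6.51 after YZ9. Of the 6 epiblast genes tested, 3 were above 0 and 3 below after PD, and 4 above and 2 below after YZ9. Summed visceral endoderm markers were 316 and 290 CPM in controls, 257 and 296 after PD and 194 and 206 after YZ9, with Hnf4a at 0 counts in all libraries and most of the sum from Dab2. By gene, 4 of the 8 tested were above 0 and 4 below after YZ9, with a median log2 fold change of -0.028. After PD 6 of 8 were above 0, with a median of 1.86, and 4 were higher at an unadjusted p under 0.05 (background 5.42%). Afp was at 0.899 and 0.565 CPM in controls, 34.3 and 5.76 after PD and 0.313 and 1.79 after YZ9. Rbp4 was at 3.11 and 7.45, 51.9 and 8.77, and 3.49 and 3.44 CPM. The part of these cells in the results was not tested, and in whole explants fewer cells of a type and less RNA per cell cannot be told apart. In the male libraries alone (both controls, PD 1 and YZ9 1, with the spread taken from the controls), the medians were 0.22 for ATF4 targets and -0.35 for chaperones.

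Among regulators, Atf4 (chr15:80255184-80257541) was at 175 and 160 CPM in controls, 181 and 169 after PD and 185 and 206 after YZ9. Its log2 fold change after YZ9 was 0.22 (SE 0.14, edgeR adjusted p = 0.594), a small difference with both YZ9 libraries above both controls. Trib3, a pseudokinase that feeds back on ATF4, was at 13.3 and 9.79 CPM in controls, 16.4 and 17.6 after PD and 18.5 and 21.4 after YZ9. Its log2 fold change was 0.78 after YZ9 (SE 0.25, edgeR adjusted p = 0.348) and 0.56 after PD (SE 0.25, edgeR adjusted p = 0.512), and neither treated group overlapped the controls. Chac1 degrades glutathione and was at 17.5 and 8.85 CPM in controls, 15.4 and 9.06 after PD and 23.8 and 22.2 after YZ9. The controls and the PD libraries each spanned a wide range, and both YZ9 libraries were above all of them (log2 fold change 0.81, SE 0.40, edgeR adjusted p = 0.503). Leaving out control replicate 1 gave 1.38, and leaving out control replicate 2 gave 0.39. Atf5, a related factor, had a log2 fold change of 0.73 after YZ9 (SE 0.29, edgeR adjusted p = 0.422).

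Other stress regulators did not share this order. Ddit3, which encodes the pro-apoptotic factor CHOP, was at 13.9 and 17.7 CPM in controls, 15.9 and 17.8 after PD and 11.7 and 13.3 after YZ9, where both libraries lay below both controls (log2 fold change -0.34, SE 0.24, edgeR adjusted p = 0.640, and -0.15 without control replicate 2). About 10.9% of its exon length is shared with other annotated transcripts, which counting without strand cannot separate. Ppp1r15a, the phosphatase subunit that reverses eIF2 phosphorylation, overlapped control in both comparisons. Atf3, an immediate stress factor, was at 50.4 and 46.1 CPM in controls, 157 and 60.1 after PD and 79.7 and 36.4 after YZ9, so 1 PD library stood far above the rest.

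The serine, asparagine and mitochondrial folate enzymes all had a log2 fold change above 0 after YZ9, and none passed the test. Both YZ9 libraries were above both controls for Phgdh, Psat1, Psph, Mthfd2 and Aldh1l2, while Asns and Shmt2 overlapped control. Phgdh, the first enzyme of serine synthesis, was at 136 and 107 CPM in controls, 119 and 112 after PD and 181 and 159 after YZ9. Both YZ9 libraries were above the other 4, with a log2 fold change of 0.49 against control (SE 0.17, edgeR adjusted p = 0.377) and of -0.56 for PD against YZ9 (SE 0.17, edgeR adjusted p = 0.322). A pseudogene copy of Phgdh is annotated, as is one of Calr, and how reads were split between copies is not known. Psat1, the next enzyme, had a log2 fold change of 0.28 after YZ9 (edgeR adjusted p = 0.514). Psph, the last, was at 53.6 and 57.1 CPM in controls, 80.2 and 93.2 after PD and 58.5 and 89.1 after YZ9. Its larger log2 fold change was after PD (0.65, SE 0.23, edgeR adjusted p = 0.359), against 0.41 after YZ9 (SE 0.23, edgeR adjusted p = 0.541). Psph shares 10.4% of its exon length with Cct6a on the other strand. Asns, which makes asparagine, was at 493 and 521 CPM in controls, 589 and 511 after PD and 495 and 631 after YZ9, and overlapped in all 3 comparisons. The mitochondrial folate enzymes Shmt2 and Mthfd2 had log2 fold changes of 0.33 and 0.17 after YZ9, and Aldh1l2 was at 6.63 and 6.17 CPM in controls, 4.23 and 4.63 after PD and 7.66 and 9.41 after YZ9. For Aldh1l2 the PD libraries were the lowest and the YZ9 libraries the highest (PD against YZ9 log2 fold change -0.95, SE 0.29, edgeR adjusted p = 0.331), and 14.1% of its exon length is shared with a gene on the other strand.

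Gpt2 (chr8:85492576-85527560), a mitochondrial alanine transaminase, had the smallest p of the ATF4 targets above control after PD, and was above control after YZ9 as well. It was at 45.7 and 33.9 CPM in controls, 83.0 and 62.0 after PD and 56.8 and 71.8 after YZ9, so all 4 treated libraries were above both controls. The log2 fold change was 0.87 after PD (SE 0.24, edgeR adjusted p = 0.247) and 0.69 after YZ9 (SE 0.24, edgeR adjusted p = 0.377). Cth, which makes cysteine from cystathionine, ran the other way after YZ9: 31.7 and 32.7 CPM in controls, 27.2 and 38.5 after PD and 16.9 and 21.9 after YZ9 (log2 fold change -0.73, SE 0.25, edgeR adjusted p = 0.377). Pck2, the mitochondrial form of phosphoenolpyruvate carboxykinase, overlapped control with both agents.

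Amino acid transporters of the list are Slc7a5, Slc3a2, Slc7a3 and Slc7a11, and none passed the test. Slc7a5, the light chain of the leucine exchanger, and its partner Slc3a2 had log2 fold changes of 0.62 (edgeR adjusted p = 0.393) and 0.24 after YZ9, and of 0.41 and 0.28 after PD. Neither gene overlapped control in either comparison. Slc7a3, a carrier of basic amino acids on the X chromosome, was at 51.9 and 45.3 CPM in controls, 93.4 and 58.6 after PD and 58.7 and 64.4 after YZ9 (PD log2 fold change 0.65, SE 0.24, edgeR adjusted p = 0.397, and 0.27 without PD replicate 1). Slc7a11, the cystine importer whose promoter holds 2 CARE matches, was at 53.1 and 42.4 CPM in controls, 62.6 and 63.8 after PD and 50.2 and 43.4 after YZ9. It was above control after PD (log2 fold change 0.41, SE 0.18, edgeR adjusted p = 0.513) and at -0.03 after YZ9. Vldlr, a lipoprotein receptor and ATF4 target, had a log2 fold change of 0.62 after YZ9 (edgeR adjusted p = 0.524). Sesn2, a leucine sensor that restrains mTORC1, was at 74.3 and 38.2 CPM in controls, 40.8 and 46.8 after PD and 98.8 and 70.0 after YZ9. The controls were far apart, and PD lay below YZ9 (log2 fold change -0.95, SE 0.34, edgeR adjusted p = 0.378).

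Nupr1 (chr7:126623249-126630861), a small stress-induced chromatin protein, had the largest log2 fold change of any member, after PD. It was at 51.2 and 88.7 CPM in controls, 7.88 and 9.98 after PD and 25.8 and 5.97 after YZ9, so all 4 treated libraries were below both controls. The log2 fold change was -2.97 after PD (SE 0.68, edgeR adjusted p = 0.188) and -2.14 after YZ9 (SE 0.65, edgeR adjusted p = 0.325). The YZ9 value rested on which library was kept, at -3.54 without YZ9 replicate 1 and -1.42 without YZ9 replicate 2. DESeq2 on all 6 libraries gave an adjusted p of 0.000115 for PD and 0.019 for YZ9. The authors' deposited table gives -2.97 with an adjusted p of 3.375e-14 for PD and -2.12 with 0.305 for YZ9. Without YZ9 replicate 1 in the fit, the PD difference passed edgeR's test (adjusted p = 0.0493). Stc2, a secreted glycoprotein, was also below both controls in all treated libraries: 21.3 and 23.9 CPM in controls, 13.6 and 10.4 after PD and 17.3 and 11.5 after YZ9 (PD log2 fold change -0.92, SE 0.29, edgeR adjusted p = 0.305). Both comparisons of these genes use the same 2 controls.

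**Figure D3:**
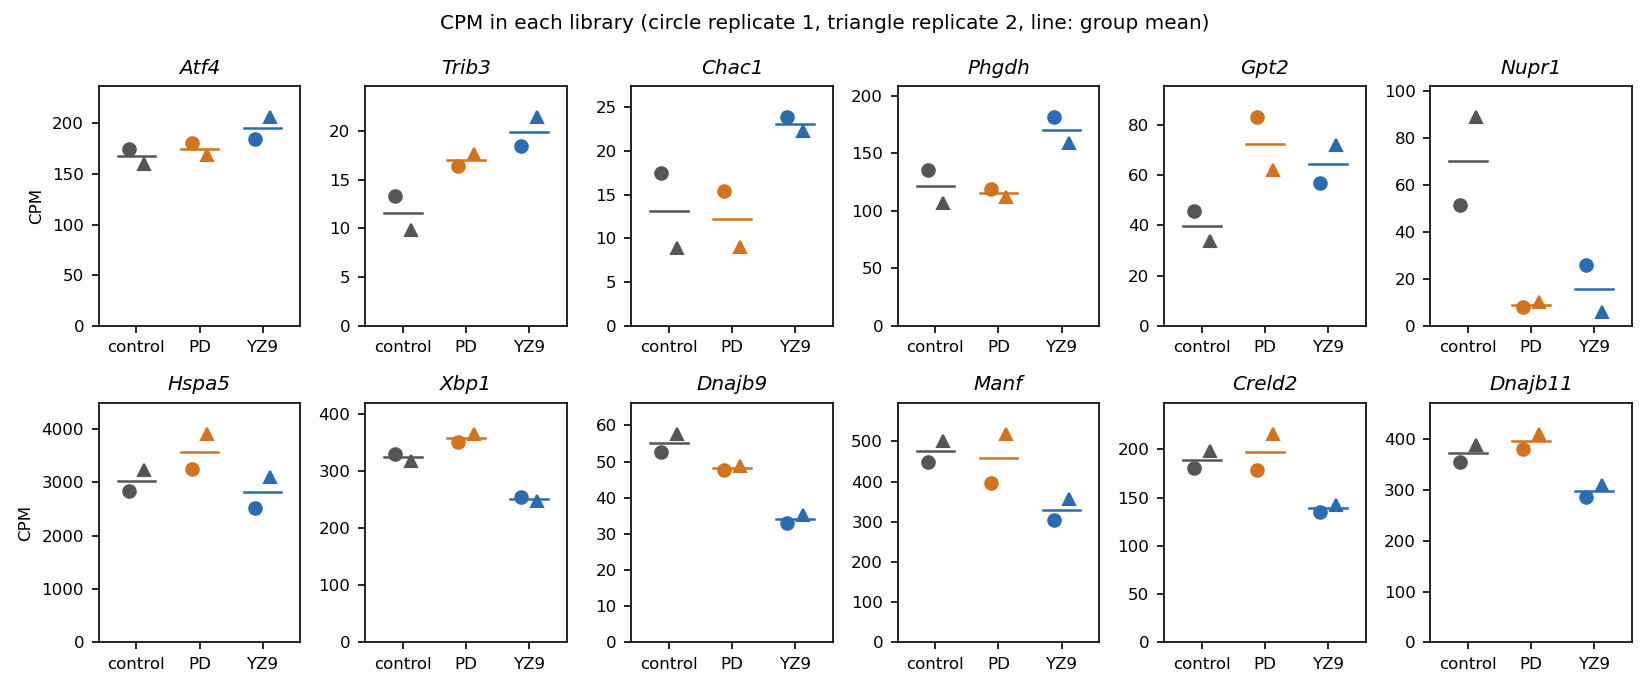
CPM of 12 members in each library, on linear axes from 0 that differ between panels; circles are replicate 1, triangles replicate 2 and lines the group mean. In Xbp1, Dnajb9, Manf, Creld2 and Dnajb11 both YZ9 points lie below the other 4, in Chac1 and Phgdh both lie above them, and in Nupr1 the 4 treated points lie between 5.97 and 25.8 under controls at 51.2 and 88.7.

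Among reticulum genes, the main chaperone overlapped control after YZ9. Hspa5 (chr2:34771970-34777547) was at 2827 and 3231 CPM in controls, 3237 and 3903 after PD and 2513 and 3100 after YZ9. YZ9 overlapped control (log2 fold change -0.11, SE 0.17, edgeR adjusted p = 0.831), and both PD libraries were above both controls by a small margin (0.24, SE 0.17, edgeR adjusted p = 0.724). Hsp90b1, the reticulum form of HSP90, and the lectin chaperones Calr and Canx had log2 fold changes of -0.31, -0.14 and -0.30 after YZ9. Hsp90b1 shares 15.7% of its exon length with other annotated genes.

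The cochaperones that work with BiP include J-domain proteins, an exchange factor and Sdf2l1, and none passed the test. Dnajb9 (chr12:44205559-44210326), a J-domain partner of BiP that is known to restrain IRE1, was at 52.7 and 57.7 CPM in controls, 47.7 and 48.7 after PD and 33.1 and 35.3 after YZ9. Both YZ9 libraries were below the other 4, with a log2 fold change of -0.69 (SE 0.16, edgeR adjusted p = 0.241, DESeq2 adjusted p = 0.0141). Dnajb11, another J-domain partner, was at 355 and 389 CPM in controls, 381 and 411 after PD and 287 and 310 after YZ9 (log2 fold change -0.32, SE 0.13, edgeR adjusted p = 0.443). Dnajc3 had a log2 fold change of -0.29 and the nucleotide exchange factor Hyou1 one of 0.44 after YZ9, the latter with controls at 33.4 and 18.0 CPM. Sdf2l1, a partner of Dnajb11, had both YZ9 libraries above both controls (0.17, edgeR adjusted p = 0.784).

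The secreted and luminal stress factors Manf and Creld2 followed the same order. Manf, a trophic factor held in the reticulum by BiP, was at 450 and 502 CPM in controls, 396 and 519 after PD and 304 and 356 after YZ9 (log2 fold change -0.53, SE 0.18, edgeR adjusted p = 0.368), and 9.25% of its exon length is shared with other genes. Creld2, whose ERSE is printed above, was at 180 and 198 CPM in controls, 178 and 216 after PD and 135 and 142 after YZ9 (log2 fold change -0.45, SE 0.15, edgeR adjusted p = 0.377). In both, the YZ9 libraries were below the other 4. The disulfide isomerases Pdia3, Pdia4 and Pdia6 had log2 fold changes of -0.29, -0.15 and -0.31 after YZ9. Pdia3 was at 2214 and 2573 CPM in controls, 2479 and 2782 after PD and 1881 and 2040 after YZ9, and Pdia4 at 437 and 435, 460 and 577, and 386 and 402. For all 3 isomerases both YZ9 libraries were below both controls.

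Xbp1 (chr11:5520659-5525893), the transcription factor of the IRE1 arm, was at 331 and 317 CPM in controls, 351 and 366 after PD and 255 and 248 after YZ9. Its replicates were close together, YZ9 was lowest and PD highest, and no groups overlapped. The log2 fold change was -0.37 for YZ9 against control (SE 0.12, edgeR adjusted p = 0.369), 0.14 for PD against control (SE 0.12, edgeR adjusted p = 0.795) and 0.51 for PD against YZ9 (SE 0.12, edgeR adjusted p = 0.232, DESeq2 adjusted p = 0.027). Counts per gene do not separate its spliced from its unspliced form. Atf6, the sensor of the third arm, was at 41.2 and 34.7 CPM in controls, 27.2 and 38.8 after PD and 31.8 and 31.7 after YZ9.

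Disposal factors were mixed. Herpud1, an adaptor of reticulum degradation, was at 138 and 144 CPM in controls, 178 and 147 after PD and 106 and 137 after YZ9 (YZ9 log2 fold change -0.21, SE 0.18, edgeR adjusted p = 0.690). Edem1, a mannosidase-like lectin, had a log2 fold change of -0.37 after YZ9. Sel1l and Syvn1, which form the membrane ligase complex, were at 0.25 and 0.67, and Sel1l was at 130 and 101 CPM in controls, 124 and 155 after PD and 145 and 129 after YZ9. So of the 4 chaperone-list genes above 0 after YZ9 (Sdf2l1, Hyou1, Sel1l and Syvn1), 2 belong to that ligase complex.

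**Figure D4:**
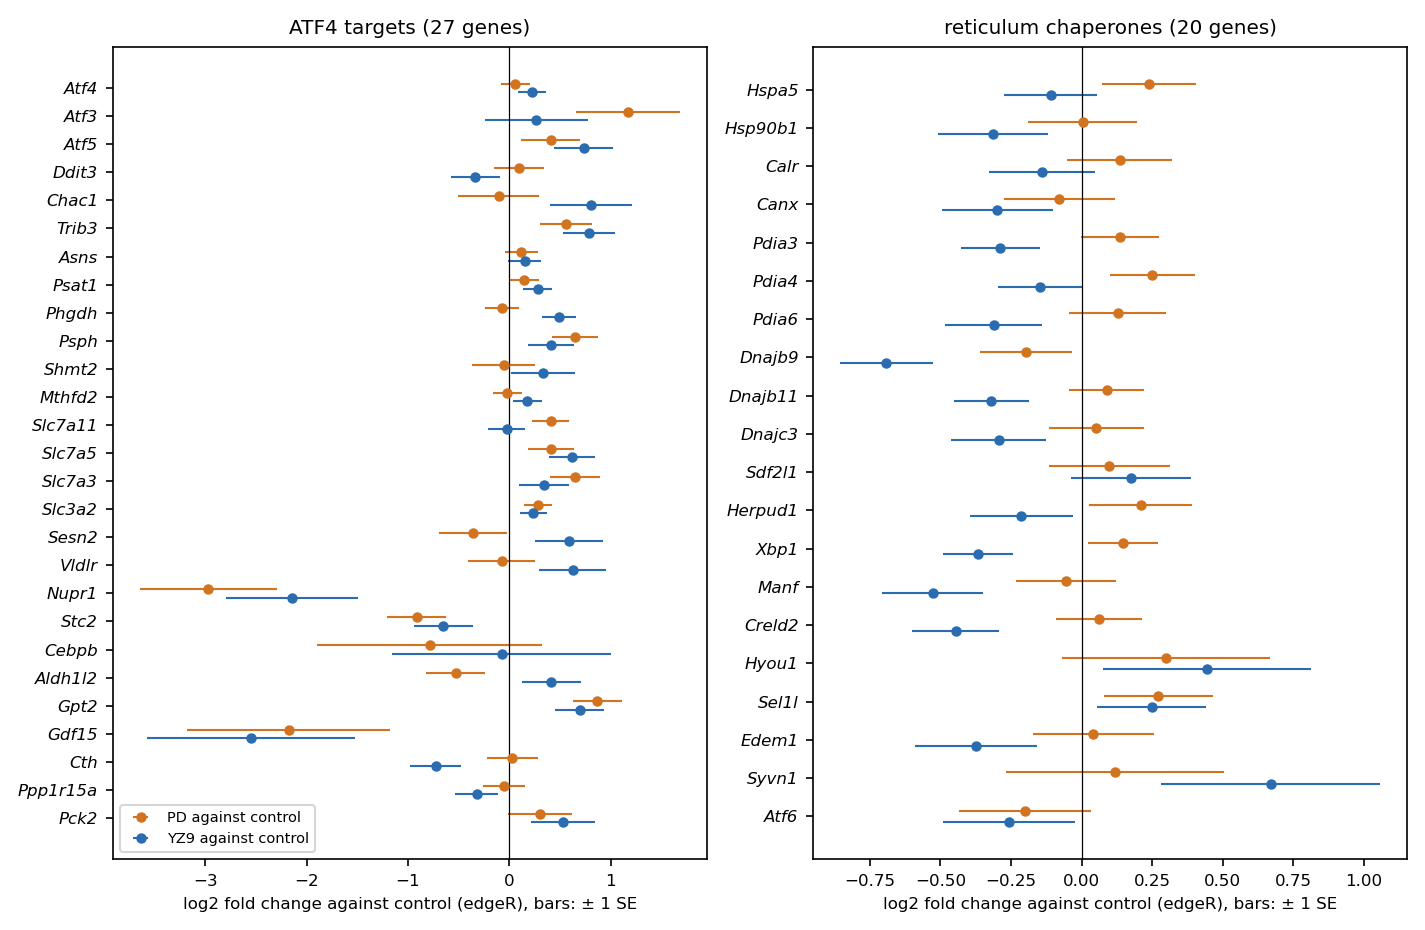
Log2 fold changes against control from edgeR for each member, PD in orange and YZ9 in blue, with bars of ± 1 SE, ATF4 targets at left and reticulum chaperones at right on separate scales. For chaperones 16 of 20 blue points lie below 0 and 16 of 20 orange points above 0; the widest bars among ATF4 targets belong to Cebpb and Gdf15, the members with the lowest counts.

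After PD the medians of both lists were nearer 0 than after YZ9. Of 27 ATF4 targets 15 were above 0 and 12 below, with a median log2 fold change of 0.06, against 0.0044 and 50.5% above 0 for all genes. Both PD libraries were above both controls for 9 (33.3%, background 19.2%) and below for 4 (14.8%, background 19.5%). At an unadjusted p under 0.05 there were 3 higher (11.1%, background 5.42%: Psph, Slc7a3 and Gpt2) and 2 lower (7.41%, background 5.38%: Nupr1 and Stc2). Of 20 chaperones 16 were above 0, with a median of 0.11, but 4 were above both controls and 1 below, and 0 were under that p in either direction. The direction of the PD chaperone median was not stable: it was -0.0445 with 9 of 20 above 0 without PD replicate 2, the 1 female library of this comparison. With sex as a covariate and all libraries kept it was -0.0049 with 10 of 20 above 0. In the treated groups, sex, replicate number and the blood and endothelial markers cannot be told apart.

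Between the 2 agents, the larger difference in medians was in the chaperones. For PD against YZ9, 17 of 20 chaperones were above 0 with a median of 0.37, and 10 of 27 ATF4 targets with a median of -0.20, where all genes had a median of -0.0016 and 49.8% above 0. Both PD libraries were above both YZ9 libraries for 13 of 20 chaperones (65.0%, background 21.6%) and below for 0. At an unadjusted p under 0.05, 8 of 20 were higher after PD (background 7.09%): Pdia3, Pdia4, Pdia6, Dnajb9, Dnajb11, Xbp1, Manf and Creld2. Of ATF4 targets, 11 of 27 were below YZ9 in both PD libraries (40.7%, background 21.4%) and 3 above. At that p, 3 were lower (11.1%, background 4.40%: Phgdh, Sesn2 and Aldh1l2) and 1, Cth, was higher. The doses were not matched (1 µM and 10 µM), and the summed blood and endothelial markers of these 4 libraries spanned 163 to 6727 CPM, whose part was not tested. Without PD replicate 2 the chaperone median was 0.21.

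Members with a motif were set beside the rest of their list. The 8 ATF4 targets with a CARE had a median log2 fold change of 0.40 after YZ9 and the 15 matched ones without it 0.24, and after PD the medians were 0.21 and -0.02. The 8 chaperones with an ERSE had a median of -0.30 after YZ9 and the 9 without it -0.29. No test was made of these splits. Within the CARE holders the range was wide, from Nupr1 at -2.14 to Chac1 at 0.81 after YZ9.

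Related genes outside the 47 were read from lists of their own. The sensors and eIF2 subunits (17 tested) had a median of 0.09 after YZ9, and 1 of 17 was higher at an unadjusted p under 0.05, a share near the 4.34% of all genes. This was Eif2ak4, the GCN2 kinase that senses uncharged tRNA, which was at 11.1 and 12.7 CPM in controls, 15.4 and 15.7 after PD and 23.3 and 20.5 after YZ9 (log2 fold change 0.88, SE 0.22, edgeR adjusted p = 0.255). Of 15 other ATF4 targets, 10 were above 0 after YZ9 (median 0.12), 3 of them at that p (background 4.34%), and 0 were lower at that p (background 6.93%). Slc1a4, a neutral amino acid carrier, was at 29.8 and 22.4 CPM in controls, 47.9 and 42.7 after PD and 48.9 and 41.1 after YZ9, so all 4 treated libraries were above both controls. The 20 cytosolic tRNA synthetases, many of them ATF4 targets, had a median of 0.09 after YZ9.

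Other genes of the reticulum lay on the side of the chaperones. Of 19 translocon and signal peptidase genes, 15 were below 0 after YZ9 (median -0.27), 4 of them at an unadjusted p under 0.05 (background 6.93%) and 0 above at that p (background 4.34%). Ssr1, a subunit of the translocon-associated complex, was at 536 and 646 CPM in controls, 600 and 641 after PD and 345 and 361 after YZ9 (YZ9 log2 fold change -0.74, SE 0.14, edgeR adjusted p = 0.204; PD against YZ9 0.81, edgeR adjusted p = 0.118). Of 25 other folding and disposal genes, 15 were below 0 after YZ9 (median -0.11) and 20 were above 0 for PD against YZ9 (median 0.28), 12 of these with no overlap (background 21.6%). Pdia5, a further isomerase, had a log2 fold change of -0.68 after YZ9 (edgeR adjusted p = 0.227). Chaperones of other compartments had medians nearer 0 after YZ9: 0.09 for 12 cytosolic heat shock genes and -0.01 for 12 mitochondrial chaperones and proteases. Of the heat shock genes, 5 had both YZ9 libraries above both controls (41.7%, background 21.1%) and 0 below both (background 24.5%). After PD the heat shock median was 0.15, with 4 above both controls (33.3%, background 19.2%) and 0 below both (background 19.5%). NRF2 targets (11 genes, Slc7a11 among them) had a median of 0.03 after YZ9 and 0.17 after PD. None of these genes passed edgeR's adjusted p of 0.05.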

How the data were processed

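Libraries came from poly(A) RNA by template switching with a low-input kit, and strand was not kept. Per the submitters' processing notes the authors used CASAVA 1.8.2, STAR 2.7.9a, DESeq2 1.40.1 and the build GRCm38; for the counting step and annotation, details were not given in the sources used here. Per the file headers, the authors deposited for each inhibitor a table of whole-number counts per gene and library, normalized columns (a signal: counts over a size factor), log2 fold changes with standard errors, a test statistic (a score), and p-values with adjusted p-values. Control columns hold the same values in each table, and joining them gave 6 libraries; 0 sample columns were left unused.

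Counts were filtered with filterByExpr (minimum count 10, minimum total 15), scaled by TMM and tested in R 4.3.3 with edgeR 4.0.16 (glmQLFit, glmQLFTest; 2-sided, all 6 libraries in 1 fit, group only; common dispersion 0.101), with Benjamini-Hochberg adjustment over all genes tested and a threshold of 0.05. SEs were obtained by dividing the size of a log2 fold change by the root of its F statistic. Alternatives were limma-trend (limma 3.58.1, prior count 3), DESeq2 1.42.0, its size factors alone, dropping the filter, a stricter one (mean count 50 or more), fits to only the 4 libraries compared, the replicate block, sex as a covariate, male libraries alone and leaving out each library. Comparing the counts of the libraries within each group gave a chi-square of 55.2, 96.9 and 62.6 per gene (control, PD, YZ9), where sampling alone gives about 1, so the spread between libraries and not counting error sets the precision, and no 2 libraries were copies.

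The members and lists were chosen with earlier results of these data known. Values in every library are given for Atf4, Ddit3, Asns, Trib3, Chac1, Hspa5, Xbp1 and Herpud1 and, per list and comparison, for up to 5 members with the smallest unadjusted p at a mean CPM of at least 1. Genes named from the other stress and reticulum lists were among up to 3 per list by the same measure. So were the cell type markers Kdr, Mixl1, Vim, Foxa2, Foxa1, Cdh1, Pecam1, Tie1, Afp, Rbp4, Krt8, Cdx2, Krt7, Epcam and Otx2. Hhex, Cdh5, Cldn6, Hbb-bh1, Dab2 and further markers named were outside that rule. Values of Atf3, Atf6 and low-count members were added after they were seen, as was the count of members above 0 across settings. Gene positions and exon lengths come from GENCODE M21 (GRCm38), and sequences from RefSeq (GRCm38.p6). The pipeline was tested on simulated data.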

Additional observations from a re-analysis of the deposited data

How the results depend on the processing

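With 2 libraries a group, the spread between libraries limits every call. By edgeR, 0 members passed in each comparison, and with the replicate block 0 passed as well. The labels do not say whether replicate numbers pair the samples. Deviations of same-numbered libraries correlated at -0.10 for control with PD, 0.17 for control with YZ9 and 0.35 for PD with YZ9. In both treated groups replicate 1 was male and replicate 2 female, and summed blood and endothelial markers were higher in replicate 2 of each group. Replicate number, sex and these markers cannot be told apart in the treated groups. For PD against control 3 members passed without the filter (Atf3, Gpt2 and Nupr1), 2 by DESeq2, 1 with sex as a covariate (Atf3), 2 in male libraries alone (Atf3 and Nupr1, where PD has 1 library and the spread comes from the controls), and 0 to 1 leaving out a library (Nupr1, without YZ9 replicate 1). For YZ9 against control 1 passed without the filter and 2 by DESeq2, and for PD against YZ9 1 without the filter (Sesn2) and 1 by DESeq2; leaving out a library gave 0 in both. Leaving out each library moved the ATF4 medians over 0.0221 to 0.18 for PD against control and -0.20 to -0.10 for PD against YZ9, and the chaperone medians over -0.0445 to 0.20, -0.35 to -0.15 and 0.21 to 0.48 for PD against control, YZ9 against control and PD against YZ9. In male libraries alone the chaperone median for PD against control was -0.0442. The cause of these shifts was not tested. Of 49 named log2 fold changes 6 changed sign in some setting. Leaving out libraries, these ran from -0.0059 to 0.12 for Atf4, -0.0683 to 0.28 for Ddit3 and -0.54 to 0.47 for Chac1 (PD against control), -0.0185 to 0.32 for Asns and -0.25 to 0.0418 for Hspa5 (YZ9 against control), and -0.21 to 0.13 for Asns (PD against YZ9). Chac1 after PD was 0.069 with sex as a covariate and 0.23 in male libraries alone, where Asns was -0.0184 after YZ9 and 0.23 for PD against YZ9.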
